A study of Homo sapiens with 2 samples.

Results

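SPHK1, the inducible sphingosine kinase, was examined with 9 other enzymes of sphingolipid metabolism, SPHK2, SGPL1, SGPP1, SPTLC1, CERS2, CERS5, CERS6, ASAH1 and UGCG. These 10 genes were taken by symbol from the 11943 protein-coding genes listed, and all 10 passed the filter on low values. SPHK1 was chosen because its values were lower after rhPOSTN in these same libraries, so its difference is given as a description with no test. The cells were HMC3, an immortalised human microglial line of WT genotype. They received either rhPOSTN, a recombinant form of the human matricellular protein periostin, or PBS as vehicle, each at a single dose and duration. There were 3 libraries for rhPOSTN and 3 for PBS, and no source tells whether they were grown as separate cultures. The p-values therefore cover library-to-library spread alone, possibly of technical origin, and a single cell line stands for microglia.

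Sphingolipids are built from serine and a fatty acyl chain on the endoplasmic reticulum, where serine palmitoyltransferase makes the first intermediate and ceramide synthases attach a second chain. Ceramide can be turned into sphingomyelin or glycosphingolipids, or be cleaved to sphingosine. Sphingosine kinases phosphorylate sphingosine to sphingosine 1-phosphate (S1P), a lipid signal that leaves the cell through transporters and acts on G protein-coupled receptors. S1P is removed by a lyase, which destroys it for good, or by phosphatases, which return it to sphingosine. In microglia and macrophages S1P signalling is known from work on inflammation and migration.

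Expression was given as FPKM, the fragments of a gene divided by transcript length and by the mapped fragments of its library, which allows levels of different genes to be set side by side. The summed FPKM per library lay between 184122 and 195494, and the number of reads behind the values is unknown. PBS library 3 stood apart from the rest. Its Pearson r with the other 5 libraries across genes was 0.913 to 0.940, against 0.973 to 0.983 for the 10 pairs among those 5, and mitochondrially encoded genes took 1.48% of its FPKM, against 4.95% to 7.77% elsewhere. Differences are therefore given with all 6 libraries and again without PBS library 3. Of 19 microglial and myeloid markers, 4 were listed (TREM2, CD68, CD14 and MERTK), with a summed level of 24.4 to 26.7 FPKM in rhPOSTN libraries and 20.7 to 28.1 FPKM in PBS libraries. Within this sum CD14 had 2.18, 2.32 and 1.81 FPKM in rhPOSTN libraries, against 1.00, 0.979 and 2.18 FPKM in PBS libraries, and CD68 had 11.2, 9.45 and 14.2 FPKM in rhPOSTN libraries, against 15.4, 16.2 and 4.57 FPKM in PBS libraries. Without PBS library 3, CD14 differed by 0.64 (limma unadjusted p = 0.000975, adjusted p = 0.255) and CD68 by -0.43 (unadjusted p = 0.0417, adjusted p = 0.520). With all 6 libraries these differences were 0.41 and 0.10. TREM2 and MERTK differed by 0.080 and 0.076 without PBS library 3 (limma unadjusted p = 0.547 and 0.565), and by 0.046 and -0.062 with all 6. Of all tested genes 9.55% were under an unadjusted p of 0.05 without PBS library 3. The defining markers AIF1, ITGAM, CX3CR1, P2RY12, CSF1R, PTPRC and SPI1 were looked up and were not among the genes listed. Their levels are unknown, so the microglial label could not be checked against them. Of 10 fibroblast and pericyte markers, 5 were listed (COL1A1, COL1A2, PDGFRB, THY1 and ACTA2), at a summed 145.9 to 175.6 FPKM in rhPOSTN libraries and 140.8 to 364.4 FPKM in PBS libraries. The highest sum was that of PBS library 3 and was nearly all COL1A1, at 324.2 FPKM. COL1A2, under the filter, was also highest in PBS library 3, at 1.36 FPKM, against 0.305 to 0.572 FPKM in the other 5. In that library PDGFRB was at 7.80 FPKM, against 8.27 to 9.43 FPKM in the other 5. THY1 was at 26.7 FPKM there, against 28.0 and 29.4 FPKM in PBS libraries 1 and 2 and 25.9 to 30.6 FPKM in rhPOSTN libraries. ACTA2, at 4.37 FPKM, and THY1 were thus within the range of the rest. The part of these markers in the results was not tested.

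SPHK1 lies on the plus strand of chromosome 17 (ENSG00000176170.13_2, 74372665 to 74383941, GRCh37). RefSeq gives it 3 separate start sites, whose promoters are printed because the FPKM value of the gene sums over all of them and does not say which was used. Each run holds 250 bases before the start and 30 after it on GRCh38.p14, and capitals mark a match to TGANTCA, the AP-1 site bound by FOS and JUN family proteins:
SPHK1 start 1, chr17:76382954-76383233, plus strand: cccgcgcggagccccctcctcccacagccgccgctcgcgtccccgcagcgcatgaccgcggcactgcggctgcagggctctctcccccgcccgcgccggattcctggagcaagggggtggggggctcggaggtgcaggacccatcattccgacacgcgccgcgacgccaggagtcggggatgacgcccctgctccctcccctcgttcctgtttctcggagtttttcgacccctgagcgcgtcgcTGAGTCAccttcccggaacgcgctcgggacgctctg
SPHK1 start 2, chr17:76384359-76384638, plus strand: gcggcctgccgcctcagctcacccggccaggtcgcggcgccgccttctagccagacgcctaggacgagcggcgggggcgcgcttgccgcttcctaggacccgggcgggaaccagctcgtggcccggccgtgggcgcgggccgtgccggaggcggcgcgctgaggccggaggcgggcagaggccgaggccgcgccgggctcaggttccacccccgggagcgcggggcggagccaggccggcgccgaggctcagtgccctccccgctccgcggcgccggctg
SPHK1 start 3, chr17:76385028-76385307, plus strand: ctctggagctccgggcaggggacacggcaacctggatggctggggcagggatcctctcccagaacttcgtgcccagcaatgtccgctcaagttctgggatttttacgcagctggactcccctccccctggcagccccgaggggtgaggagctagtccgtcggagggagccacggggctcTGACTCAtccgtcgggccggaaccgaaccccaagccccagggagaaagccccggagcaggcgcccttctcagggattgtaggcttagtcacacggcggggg
The AP-1 letters were in 2 of the 3 windows, as TGAGTCA with its first base at position -6 from the first start and as TGACTCA at position -71 from the third start. The same letters were found in 7.35% of the 35116 RefSeq promoters of this length, read on both strands. GGGCGG, the Sp1 box, was in 2 of the 3 windows and in 44.1% of all promoters. TGACGTCA (the cyclic AMP response element), ACGTG (the core of the hypoxia response element) and the kappaB motif were in 0 of the 3 windows, against 1.85%, 20.2% and 7.91% of all promoters. The kappaB motif was searched in the printed direction only, so its 0 and its 7.91% leave out matches on the opposite strand. None of these motifs is part of another. SPHK2 had 2 windows, with the AP-1 letters in 0, GGGCGG in 1 and ACGTG in 1. These are matches of letters and not measured sites, and 7 of the 10 genes had a promoter entry.

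SPHK1 makes S1P mainly at the plasma membrane and in the cytosol, and its transcript was lower in every rhPOSTN library than in any PBS library. It stood at 7.06, 7.19 and 4.98 FPKM in rhPOSTN libraries 1, 2 and 3, against 19.2, 17.7 and 18.2 FPKM in PBS libraries 1, 2 and 3. The groups did not overlap, and rhPOSTN library 3 was the lowest of all. Means were 6.41 ± 1.24 FPKM after rhPOSTN and 18.4 ± 0.797 FPKM after PBS (SD, n = 3 each), a ratio of 0.349. On the log2(FPKM + 1) scale, which understates changes of low genes, the difference (rhPOSTN minus PBS) was -1.40 ± 0.15 (SE), and -1.41 ± 0.16 without PBS library 3. Groups did not overlap in 11.7% of the 10982 tested genes, lower after rhPOSTN in 2.76%. Nothing is read from those shares for SPHK1, because the gene was chosen on this contrast. In bulk RNA a lower level in every cell and fewer cells with the transcript cannot be told apart.

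The spread of SPHK1 was unequal in the groups. Its coefficient of variation was 19.4% in rhPOSTN libraries, where library 3 was below libraries 1 and 2, and 4.34% in PBS libraries. The library that stood apart did not do so for SPHK1, since PBS library 3 differed from the mean of PBS libraries 1 and 2 by -0.0145 on the log2 scale. Among all listed genes SPHK1 stood at percentiles 53.0, 54.0 and 42.8 of the rhPOSTN libraries, against 81.6, 79.6 and 80.2 of the PBS libraries. Among the 10 enzymes it ranked 8, 7 and 7 from the top in rhPOSTN libraries and 4, 4 and 2 in PBS libraries.

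PRPSAP1, a regulatory partner of phosphoribosyl pyrophosphate synthetase, lies on the opposite strand and shares 7938 bases with SPHK1. It had 15.9, 16.5 and 11.2 FPKM in rhPOSTN libraries, against 14.4, 9.36 and 14.5 FPKM in PBS libraries. Its groups overlapped, with a difference of 0.18 (limma adjusted p = 0.951). The sources used here do not say whether abundance was estimated by strand. GENCODE release 29 lists 10 transcripts of SPHK1, 8 of them protein coding, and the level of the gene does not separate them.

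The second kinase, SPHK2, is found largely in the nucleus, mitochondria and endoplasmic reticulum, and was expressed far below SPHK1. It had 1.88, 1.68 and 1.55 FPKM in rhPOSTN libraries, against 1.60, 1.43 and 3.09 FPKM in PBS libraries. The highest value was that of PBS library 3, and the other 5 libraries were mixed. The difference was -0.13 ± 0.21 (limma adjusted p = 0.951) with all 6 libraries and turned to 0.10 without PBS library 3. SPHK2 overlaps RPL18 and DBP on the opposite strand.

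SPHK1 supplied 79.0%, 81.1% and 76.2% of the summed FPKM of both kinases in rhPOSTN libraries, against 92.3%, 92.5% and 85.5% in PBS libraries. It was the main sphingosine kinase transcript in all 6 libraries, and the share was lower in each rhPOSTN library. The sum of the kinases was 8.11 ± 1.37 FPKM after rhPOSTN and 20.4 ± 1.18 FPKM after PBS (SD, n = 3 each). These values carry the difference for which SPHK1 was chosen and were not tested.

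**Figure D1:**
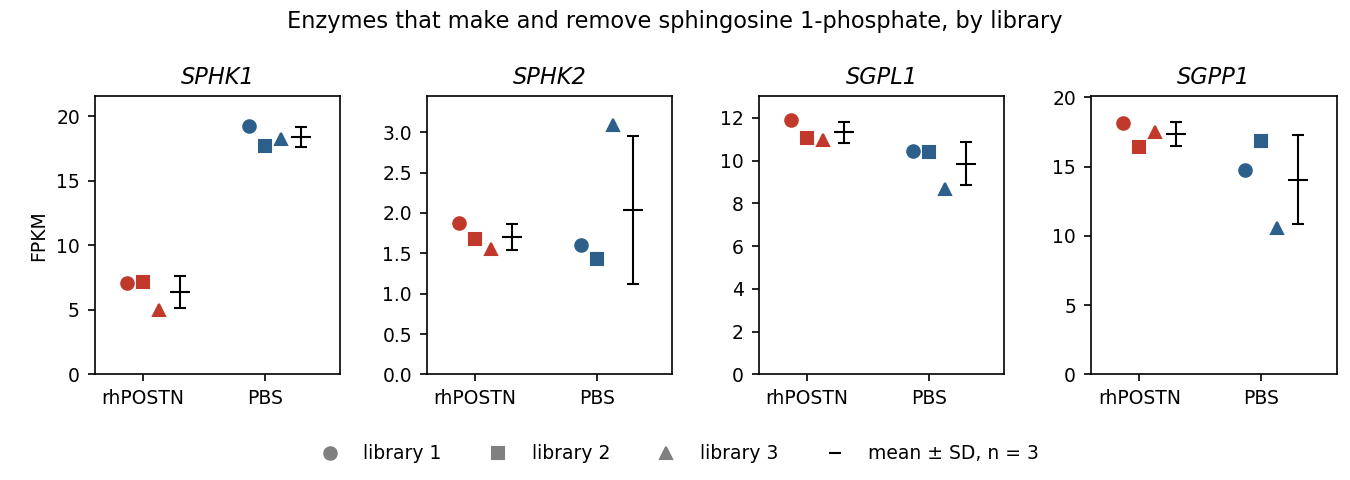
FPKM (vertical axis, from 0) of the kinases SPHK1 and SPHK2, the lyase SGPL1 and the phosphatase SGPP1 in the 3 rhPOSTN libraries (left) and the 3 PBS libraries (right) of each panel. Points are libraries and bars are mean ± SD: SPHK1 spans 4.98 to 7.19 FPKM after rhPOSTN and 17.7 to 19.2 FPKM after PBS, while PBS library 3 (triangle) is the extreme value of its group for SPHK2, SGPL1 and SGPP1.

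The enzymes that remove S1P did not follow SPHK1. SGPL1, the S1P lyase, cleaves S1P irreversibly. It had 11.9, 11.1 and 10.96 FPKM in rhPOSTN libraries, against 10.5, 10.4 and 8.69 FPKM in PBS libraries. The groups did not overlap and the rhPOSTN libraries were the higher ones, by 0.18 ± 0.12 (limma adjusted p = 0.951). Of the 9 enzymes other than SPHK1, SGPL1 was the 1 whose groups did not overlap in this direction, as did 8.94% of all tested genes. Without PBS library 3 the difference was 0.10.

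SGPP1 is the phosphatase of the endoplasmic reticulum that turns S1P back into sphingosine. It had 18.2, 16.4 and 17.5 FPKM in rhPOSTN libraries, against 14.8, 16.8 and 10.6 FPKM in PBS libraries. The groups overlapped through PBS library 2, and PBS library 3 was the lowest. The difference was 0.31 ± 0.17 (limma adjusted p = 0.951), and 0.13 without PBS library 3.

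Set against each other within a library, kinase and removal transcripts gave a ratio (SPHK1 plus SPHK2 over SGPL1 plus SGPP1) of 0.298, 0.322 and 0.229 in rhPOSTN libraries and 0.826, 0.701 and 1.11 in PBS libraries. The denominator was 28.7 ± 1.28 FPKM after rhPOSTN and 23.9 ± 4.16 FPKM after PBS (SD, n = 3 each). The ratio describes transcripts, not enzyme activity or S1P, and rests on SPHK1.

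SPTLC1, a subunit of serine palmitoyltransferase, serves the first step of synthesis. It had 26.3, 23.6 and 27.3 FPKM in rhPOSTN libraries, against 25.9, 24.6 and 16.5 FPKM in PBS libraries. PBS library 3 lay below the range of the other 5 libraries, and the difference of 0.22 (limma adjusted p = 0.951) came to 0.02 without it.

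The ceramide synthases CERS2, CERS5 and CERS6 join fatty acyl chains to the sphingoid base. CERS2 prefers very long chains, and CERS5 and CERS6 prefer shorter ones such as palmitoyl. CERS2 had 24.2, 27.1 and 32.7 FPKM in rhPOSTN libraries, against 30.9, 34.6 and 17.6 FPKM in PBS libraries. Its values were mixed across the groups, and the difference was 0.06 ± 0.26, or -0.23 ± 0.14 without PBS library 3 (limma adjusted p = 0.976 with all 6 libraries, and 0.623 without it). CERS2 overlaps SETDB1 on the opposite strand.

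CERS5 had 8.40, 6.75 and 3.43 FPKM in rhPOSTN libraries, against 4.14, 5.22 and 9.56 FPKM in PBS libraries. It varied most among the 10 genes within the rhPOSTN group, with a coefficient of variation of 40.9%, against 45.5% in the PBS group. The difference was -0.02 ± 0.37, or 0.28 without PBS library 3. CERS6 had 15.4, 13.5 and 15.8 FPKM in rhPOSTN libraries, against 14.6, 14.2 and 8.19 FPKM in PBS libraries. Here PBS library 3 was again low and the other 5 libraries were close, with a difference of 0.29 ± 0.22, or 0.04 without PBS library 3.

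With all 6 libraries the shares of CERS2 and CERS5 among the ceramide synthases varied more between libraries of a group than between the group means. CERS2 took 50.5%, 57.3% and 63.0% of the summed FPKM of the 3 synthases in rhPOSTN libraries, against 62.3%, 64.03% and 49.9% in PBS libraries. CERS5 took 17.5%, 14.3% and 6.60% in rhPOSTN libraries, against 8.34%, 9.66% and 27.0% in PBS libraries. PBS library 3 and rhPOSTN libraries 1 and 2 were the 3 highest for CERS5 and the 3 lowest for CERS2, in FPKM and in share. The CERS2 share averaged 56.9% ± 6.26 after rhPOSTN and 58.7% ± 7.73 after PBS (SD, n = 3 each), a difference of -1.80 percentage points with an exact two-sided permutation p of 0.8, where 0.1 is the smallest possible. Without PBS library 3 the difference was -6.23 points. For CERS5 the exact permutation p was 0.8 and for CERS6 0.2, with shares of CERS6 of 30.3% ± 1.76 after rhPOSTN and 26.3% ± 3.12 after PBS. Over these 3 shares and the summed level (exact permutation p = 0.9) none could reach 0.05 at this number of libraries.

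**Figure D2:**
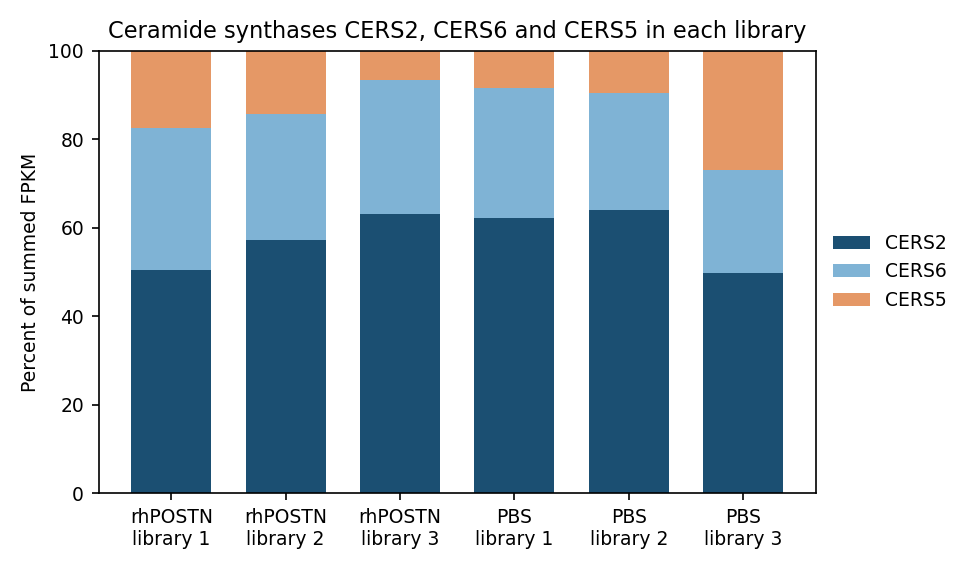
Percent of the summed FPKM of CERS2, CERS5 and CERS6 (vertical axis) in each of the 6 libraries, rhPOSTN at left and PBS at right. CERS5 takes its highest share, 27.0%, in PBS library 3 and its lowest, 6.60%, in rhPOSTN library 3, and the shares overlap between the groups.

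UGCG, which makes glucosylceramide and opens the glycosphingolipid branch, had the highest level of the 10 genes. It had 53.3, 52.2 and 53.0 FPKM in rhPOSTN libraries, against 49.4, 53.4 and 41.3 FPKM in PBS libraries. The rhPOSTN libraries were close together, with a coefficient of variation of 1.06%, and the groups overlapped through PBS library 2 (difference 0.14, limma adjusted p = 0.951, and 0.04 without PBS library 3). ASAH1, the acid ceramidase of lysosomes, was among the lowest, at 2.50, 1.75 and 1.96 FPKM in rhPOSTN libraries and 2.18, 1.73 and 1.70 FPKM in PBS libraries. Its groups overlapped, with a difference of 0.09, or 0.05 without PBS library 3.

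Of the 9 enzymes other than SPHK1, 0 passed the adjusted threshold of 0.05 in limma (adjusted p 0.951 to 0.991), against 0.0182% of all tested genes, or 2 genes. At an unadjusted p under 0.05 there were also 0 of 9, against 3.21% of all tested genes. At this number of libraries, differences of the size seen here in the 9 were not detectable over the spread between libraries, which does not show that the groups were alike. Without PBS library 3 the count at an unadjusted p under 0.05 was again 0 of 9, against 9.55% of all tested genes. PBS library 3 was below both other PBS libraries in 7 of the 9 and above both in the remaining 2 (SPHK2 and CERS5), while over all tested genes it was below both in 50.9% and above both in 39.4%.

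**Figure D3:**
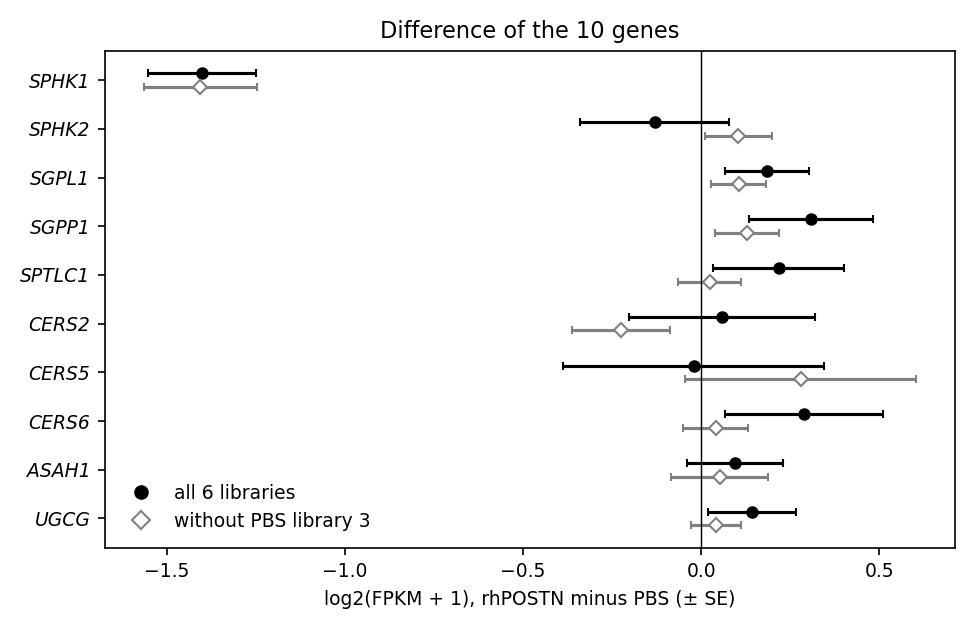
Difference in log2(FPKM + 1), rhPOSTN minus PBS (horizontal axis, bars ± SE), of the 10 genes, with all 6 libraries (filled) and without PBS library 3 (open). SPHK1 lies at -1.40 and -1.41, and the other 9 genes lie between -0.13 and 0.31 with all 6 libraries.

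By mean level over the 6 libraries the order was UGCG (50.4 FPKM), CERS2 (27.9), SPTLC1 (24.0), SGPP1 (15.7), CERS6 (13.6), SPHK1 (12.4), SGPL1 (10.6), CERS5 (6.25), ASAH1 (1.97) and SPHK2 (1.87). UGCG was separate from CERS2, and CERS5 from ASAH1, in the ranges over libraries, and the ranges of all other neighbours overlapped. Within single libraries SPTLC1 was above SGPP1, and SGPP1 above CERS6, in 6 of 6. CERS2 was above SPTLC1, SGPL1 above CERS5 and ASAH1 above SPHK2 in 5 of 6. SPHK1 was below CERS6 and SGPL1 in the 3 rhPOSTN libraries and above both in the 3 PBS libraries. The mean of SPHK1 hides its split into libraries at or below 7.19 FPKM and at or above 17.7 FPKM.

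Likeness to SPHK1 was measured as Pearson r of log2(FPKM + 1) over the 6 libraries, as a description. Among the enzymes r ran from -0.676 for SGPL1 to 0.286 for SPHK2. Over all tested genes the 5 highest were RTL10 (0.989), CDC6 (0.981), MLKL (0.979), HYPK (0.977) and ADAMTS1 (0.977), and being lower in every rhPOSTN library follows from being chosen this way. RTL10, a gene derived from a retrotransposon, had 1.66, 1.74 and 1.05 FPKM in rhPOSTN libraries, against 4.65, 4.72 and 3.79 FPKM in PBS libraries. RTL10 shares its low rhPOSTN library 3 with SPHK1, but overlaps GNB1L on the same strand, so the reads of these genes cannot be cleanly separated. ADAMTS1, a secreted metalloprotease, had 43.3, 40.3 and 40.1 FPKM in rhPOSTN libraries, against 57.4, 53.7 and 57.9 FPKM in PBS libraries. CDC6, which loads the replicative helicase, differed by far less in size, at 61.4, 60.8 and 60.5 FPKM in rhPOSTN libraries and 65.0, 64.5 and 65.5 FPKM in PBS libraries. MLKL, the effector of necroptosis, was at 1.34 to 1.44 FPKM in rhPOSTN libraries and 1.86 to 2.03 FPKM in PBS libraries. HYPK was at 2.69 to 3.01 FPKM in rhPOSTN libraries and 3.46 to 3.65 FPKM in PBS libraries, and overlaps SERF2 on the same strand.

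To set SPHK1 in its pathway, 67 further sphingolipid genes in 10 roles were listed, of which 55 were in the tables and 53 were tested. With all 6 libraries 0 of the 53 passed the adjusted threshold in either direction. At an unadjusted p under 0.05, 1 was higher after rhPOSTN and 0 were lower, against 2.45% and 0.765% of all tested genes. The groups did not overlap in 4 that were higher (KDSR, CERS4, PLPP1 and B3GALT4) and 1 that was lower (SPNS2), counts that do not stand above the 8.94% and 2.76% of all tested genes. Differences were positive in 44 and negative in 9, with a median of 0.09, against 6974 positive, 4008 negative and a median of 0.06 over all tested genes. Without PBS library 3 the signs were 31 positive and 22 negative and the median 0.07, against 6459 positive, 4510 negative and a median of 0.03 over all tested genes. PBS library 3 was below both other PBS libraries in 34 of the 55 listed genes and above both in 15.

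The S1P receptors, which carry the signal of secreted S1P, were all low. S1PR1 had 3.22, 2.59 and 2.65 FPKM in rhPOSTN libraries, against 3.37, 3.34 and 1.90 FPKM in PBS libraries. S1PR5 had 2.38, 2.42 and 2.46 FPKM in rhPOSTN libraries, against 1.92, 1.78 and 3.28 FPKM in PBS libraries. PBS library 3 was the lowest library for S1PR1 and the highest for S1PR5. Without it S1PR5 differed by 0.27 (limma unadjusted p = 0.0172, adjusted p = 0.493), and by 0.07 with it. S1PR2 was at 1.11 to 1.496 FPKM in rhPOSTN libraries and 0.545 to 1.29 FPKM in PBS libraries, and overlaps DNMT1 on the same strand. S1PR3 was at 1.11 to 1.36 FPKM in rhPOSTN libraries and 0.505 to 1.16 FPKM in PBS libraries. S1PR4 was not among the genes listed, so its level is unknown.

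Of the transporters, SPNS2, an S1P exporter, had 1.47, 1.55 and 1.18 FPKM in rhPOSTN libraries, against 1.55, 1.67 and 1.65 FPKM in PBS libraries. The groups met almost at the same value, with a difference of -0.13 (limma adjusted p = 0.951). MFSD2B, the exporter of blood cells, was under the filter at 0.462 to 0.632 FPKM in rhPOSTN libraries and 0.415 to 0.728 FPKM in PBS libraries, and overlaps FKBP1B on the same strand. ABCC1, an export pump for many substrates, was the most abundant of the 4, at 17.8 to 21.2 FPKM in rhPOSTN libraries and 17.5 to 18.8 FPKM in PBS libraries. ABCA1 was at 2.64 to 3.08 FPKM in rhPOSTN libraries and 2.12 to 3.40 FPKM in PBS libraries.

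B3GALT4, which adds galactose in ganglioside synthesis, was the listed gene that passed an unadjusted p of 0.05. It had 1.65, 1.64 and 1.44 FPKM in rhPOSTN libraries, against 1.09, 0.784 and 1.30 FPKM in PBS libraries, a difference of 0.33 ± 0.12 (limma unadjusted p = 0.0357, adjusted p = 0.951). It overlaps WDR46 on the opposite strand. CERS4, a further ceramide synthase, had 3.96, 3.801 and 3.69 FPKM in rhPOSTN libraries, against 3.21, 3.10 and 3.13 FPKM in PBS libraries. Its libraries were tight in both groups, and the difference of 0.22 (limma unadjusted p = 0.0705) was 0.21 without PBS library 3 (unadjusted p = 0.0413). KDSR, a reductase of de novo synthesis, was at 7.46 to 7.65 FPKM in rhPOSTN libraries and 7.18 to 7.43 FPKM in PBS libraries, a narrow gap. PLPP1, a lipid phosphatase that can act on S1P, had 9.19, 10.0 and 10.5 FPKM in rhPOSTN libraries, against 8.41, 8.54 and 6.28 FPKM in PBS libraries. Its difference was 0.33 (limma unadjusted p = 0.0596), or 0.20 without PBS library 3.

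Without PBS library 3, 5 listed genes were higher at an unadjusted p under 0.05 (CERS1, CERS4, S1PR5, B3GALT4 and ARSA) and 2 were lower (ACER3 and SCARB2), against 7.07% and 2.48% of all tested genes, and 0 passed the adjusted threshold. ACER3, an alkaline ceramidase that yields sphingosine, had 3.74, 4.10 and 4.34 FPKM in rhPOSTN libraries, against 5.53, 5.78 and 1.88 FPKM in PBS libraries. SCARB2, the carrier of glucocerebrosidase to lysosomes, had 5.34, 4.28 and 5.88 FPKM in rhPOSTN libraries, against 7.39, 7.44 and 3.44 FPKM in PBS libraries. In both genes PBS library 3 lay below all rhPOSTN libraries and PBS libraries 1 and 2 above them. Their differences without it were -0.40 for ACER3 (limma unadjusted p = 0.00537) and -0.46 for SCARB2 (limma unadjusted p = 0.0135). CERS1 was at 1.80 to 2.10 FPKM in rhPOSTN libraries and 1.42 to 1.90 FPKM in PBS libraries, and ARSA, the sulfatide hydrolase, at 6.90 to 8.58 FPKM in rhPOSTN libraries and 6.03 to 12.2 FPKM in PBS libraries.

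The most extreme differences in the list rested on PBS library 3. B4GALT6, a lactosylceramide synthase, had the largest positive one, 0.49, with 3.58, 2.40 and 2.999 FPKM in rhPOSTN libraries, against 2.98, 3.21 and 0.341 FPKM in PBS libraries. TRAF2, a signalling adaptor that binds SPHK1, had the largest negative one, -0.18, with 11.8, 12.7 and 10.2 FPKM in rhPOSTN libraries, against 10.5, 9.50 and 22.5 FPKM in PBS libraries. Without that library the values were -0.05 for B4GALT6 and 0.19 for TRAF2. CIB1, a calcium-binding protein that brings SPHK1 to the membrane, was at 21.9 to 28.7 FPKM in rhPOSTN libraries and 20.8 to 24.1 FPKM in PBS libraries.

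The most abundant genes of the remaining roles overlapped between the groups. PSAP, the precursor of the saposins that assist lysosomal hydrolases, had 257.5, 256.6 and 225.01 FPKM in rhPOSTN libraries, against 219.9, 211.9 and 358.1 FPKM in PBS libraries. DEGS1, the desaturase that completes ceramide, was at 49.0 to 53.3 FPKM in rhPOSTN libraries and 23.6 to 55.9 FPKM in PBS libraries, with PBS library 3 the lowest. B4GALT5, the other lactosylceramide synthase, was at 42.5 to 49.0 FPKM in rhPOSTN libraries and 31.8 to 48.3 FPKM in PBS libraries. ORMDL2, an inhibitor of serine palmitoyltransferase, was at 13.3 to 15.8 FPKM in rhPOSTN libraries and 8.98 to 18.2 FPKM in PBS libraries. On the opposite strand ORMDL2 overlaps DNAJC14 and lies wholly within AC023055.1, which ranged from 0.108 to 15.4 FPKM over the libraries. CPTP, which moves ceramide 1-phosphate between membranes, was at 10.9 to 13.8 FPKM in rhPOSTN libraries and 10.5 to 15.5 FPKM in PBS libraries. SMPD4, a neutral sphingomyelinase, was at 11.9 to 12.9 FPKM in rhPOSTN libraries and 11.2 to 12.04 FPKM in PBS libraries.

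**Figure D4:**
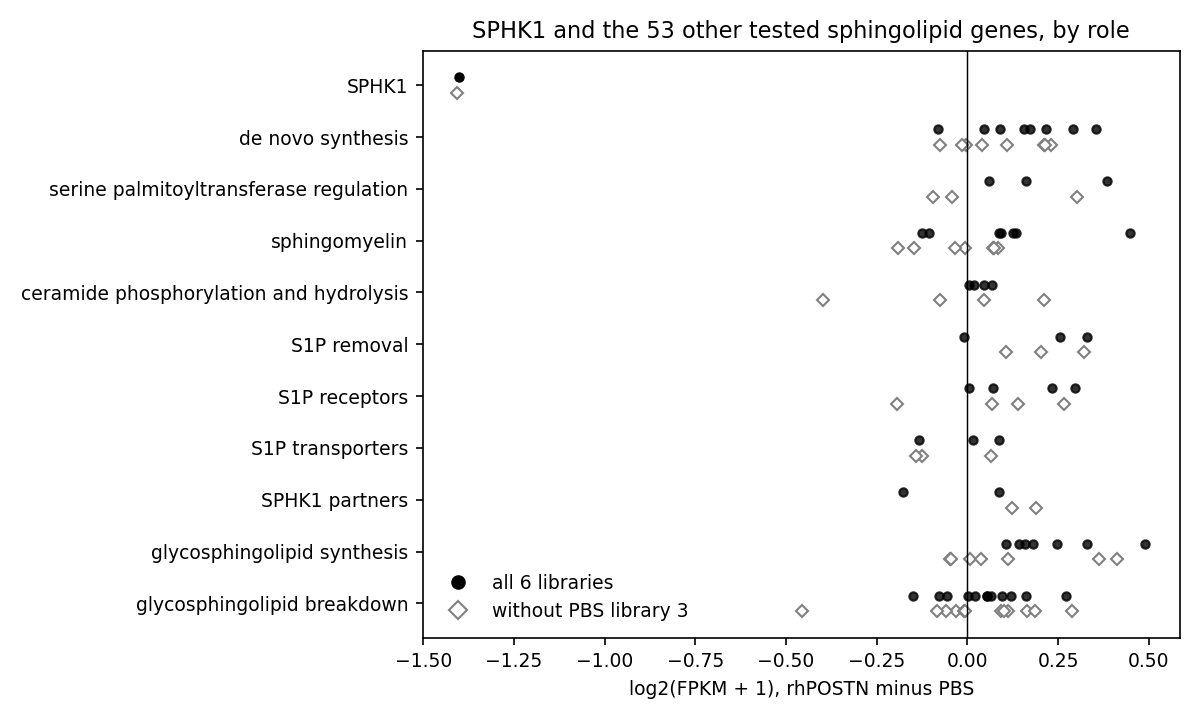
Difference in log2(FPKM + 1), rhPOSTN minus PBS (horizontal axis), of SPHK1 and of the 53 tested genes of the sphingolipid list by role, with all 6 libraries (filled) and without PBS library 3 (open). The listed genes lie between -0.18 and 0.49 with all 6 libraries, and SPHK1 at -1.40.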

How the data were processed

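Poly(A)-selected RNA of HMC3 cells was sequenced from stranded libraries (the labels name rRNA depletion as an alternative). Per the methods, the authors trimmed reads with Cutadapt, aligned them with HISAT2 and estimated abundance with StringTie and Ballgown, and deposited FPKM per gene and library. The processing notes of the submitters name GRCh37, and tool versions were not found in the sources used. The header of the rhPOSTN table names no unit, so FPKM was taken from the PBS table and the methods. StringTie divides reads among transcripts, so values of overlapping genes are uncertain.

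FPKM values were analysed as log2(FPKM + 1). The 10982 genes with a mean of at least 1 FPKM in at least 1 group were fitted with limma 3.58.1 in R 4.3.3 (eBayes with the trend option, group as the sole term). Benjamini-Hochberg adjustment ran over all of them, with a threshold of 0.05. Shares of the ceramide synthases were compared with an exact two-sided permutation test over libraries. FPKM keeps no read counts, so no counting interval is given. Promoters were read from RefSeq (GRCh38.p14) and transcripts from GENCODE release 29.

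The 10 genes, the lists and the tests were chosen with earlier results of these data known. Genes named are the 10 members, the 5 most correlated with SPHK1, genes overlapping SPHK1 and, of the sphingolipid list, the receptors and transporters, every gene with an unadjusted p under 0.05 with all 6 libraries or without PBS library 3, the most abundant gene of each role and the largest difference in each direction. KDSR was named after its values were seen, and PLPP1 is the most abundant listed gene of its role. The other marker lists had 1 of 5 genes listed for astrocytes (summed 1.45 to 1.60 FPKM in rhPOSTN libraries and 1.00 to 1.26 FPKM in PBS libraries), 2 of 5 for neurons (3.67 to 10.5 and 2.99 to 4.38 FPKM), 1 of 5 for oligodendrocytes (1.45 to 1.70 and 1.22 to 1.56 FPKM) and 1 of 5 for endothelium (0.460 to 0.738 and 0.422 to 0.713 FPKM), in the same order of groups. A further myeloid marker is not reported here. Alternatives changed the pseudocount (0.1 or 5), the filter (none or 5 FPKM) or the scaling, ran limma without the trend, with robust hyperparameters, with library weights or blocked by library number, or omitted 1 library.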

Additional observations from a re-analysis of the deposited data

How the results depend on the processing

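The number of the 9 enzymes other than SPHK1 that passed the adjusted threshold was 0 under all 16 alternatives. SPHK1 kept its direction under all 16, between -1.52 and -1.04 on the log2 scale (-1.04 with a pseudocount of 5), and between -1.48 and -1.25 when a library was left out. SPHK1 was chosen for this difference and its groups did not overlap, so the kept direction is a description and no support. Over all genes 2 were called, against 1 with a pseudocount of 0.1, 1 with a filter at 5 FPKM, 37 with library weights, 1 with the library number as replicate block and 1 to 11 when a library was left out (11 without PBS library 3). Of the sphingolipid list 1 gene was under an unadjusted p of 0.05. The count was 0 with a filter at 5 FPKM, when scaled by the median of ratios and with the replicate block. It was 10 with library weights, and 0 to 7 when a library was left out (7 without PBS library 3). Omitting PBS library 3 also raised the share of all tested genes at this p, from 3.21% to 9.55%. No such share is given for library weights, where calls over all genes rose to 37, so nothing is read from the 10. Directions that turned were those of small differences. CERS2 turned to -0.021 when scaled by the median of ratios and -0.13 with library weights, and ran from -0.23 to 0.24 when a library was left out. With library weights SPHK2 turned to 0.055, CERS5 to 0.25 and ASAH1 to -0.016. Leaving out a library gave -0.27 to 0.10 for SPHK2, -0.25 to 0.29 for CERS5 and -0.0029 to 0.17 for ASAH1. The CERS2 share ran from -6.23 to 1.41 percentage points, turning without rhPOSTN library 1 or PBS library 2. The causes were not tested. The library weight of PBS library 3 was 0.084 and that of PBS library 1 was 5.68, so weighted PBS values rest mainly on library 1. Deviations of same-numbered libraries correlated at -0.044, -0.19 and -0.42, so the numbers were not taken to pair them. SPHK2 and ASAH1 had no value at the filter of 5 FPKM. The median over all genes stayed between -0.0089 and 0.073.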

Other observations

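ORMDL3, an inhibitor of serine palmitoyltransferase whose values were singled out after they were seen, was low in 1 library of each group. It had 11.9, 11.8 and 2.51 FPKM in rhPOSTN libraries, against 12.7, 2.33 and 10.2 FPKM in PBS libraries. The low libraries were rhPOSTN library 3 and PBS library 2, and the difference was within this spread ( 0.06 ± 0.71, SE, limma adjusted p = 0.988).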
